A study of Homo sapiens with 54 samples.

Results

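Compound Kushen Injection (CKI) is a mixture of plant compounds extracted from the roots of Kushen and Baituling, and macrozamin is one of its identified components. Macrozamin belongs to the azoxyglycosides, which are best known from cycads and carry the methylazoxymethanol group as their toxic part. The 3 libraries described here came from MDA-MB-231, a human triple-negative breast cancer line in wide use, given CKI from which macrozamin had been removed (N-Mac). They were compared with the 3 libraries of untreated cells, so that 6 of the 54 libraries of the series were selected, by treatment label. N-Mac was dosed at the equivalent of 2 mg/ml CKI, and both groups were sampled after 48 h in the batch that the labels number 2. The design text of the series calls the 3 samples of a group biological replicates, and the labels name no vehicle for the untreated cells. N-Mac was a fractionated and then reconstituted mixture, whereas CKI itself was the whole injection. CKI at 2 mg/ml (48 h, batch 2, n = 3) was used to show what went with leaving macrozamin out, and the mixtures lacking N-methylcytisine (N-Nme), oxymatrine (N-Omt) or trifolirhizin (N-Tri), also n = 3 each at the same dose, time and batch, served as a reference. All groups were grown in the same medium with 10% fetal bovine serum, and none carried a genetic change that the labels name.

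As background, the transcripts of replication and mitosis are made anew in each round of division, and cells that stop dividing hold few of them. Cells under proteotoxic or oxidative stress raise chaperones, ATF4 targets and NRF2 targets. Inflammatory signalling through NF-kB and AP-1 raises a compact group of secreted proteins, among them interleukin 8 (CXCL8), interleukin 6 (IL6) and the interleukin 1 cytokines, and mesenchymal breast cancer lines are known as ready producers of these.

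In N-Mac cells the secreted cytokines and chemokines were higher. CXCL8 was at 2309 ± 62.1 CPM against 90.9 ± 23.5 in untreated cells (SD, n = 3 each), and IL24 at 708 ± 3.99 against 17.2 ± 6.26. CPM are counts scaled to the total of the library after its adjustment by the TMM method. The genes of mitosis were lower, with KIF20A at 4.71 ± 0.957 CPM against 96.9 ± 11.3 and PLK1 at 7.49 ± 0.399 against 113 ± 4.4. CXCL8 and IL6 were also far above their levels with CKI, where they were lower than in untreated cells.

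The promoters of some of the genes at both ends are shown here because members of the same group moved together. They are the 250 bases before the transcription start in the RefSeq annotation of build GRCh38.p14, read in the direction of the gene. In the cytokine promoters, capitals mark GGNNTTTCC, a short form of the NF-kB site, searched on both strands with N for any base. The cytokine promoters printed are ones that hold this motif, and the promoter of IL24 held none.
CXCL8, chr4:73740319-73740568, plus strand: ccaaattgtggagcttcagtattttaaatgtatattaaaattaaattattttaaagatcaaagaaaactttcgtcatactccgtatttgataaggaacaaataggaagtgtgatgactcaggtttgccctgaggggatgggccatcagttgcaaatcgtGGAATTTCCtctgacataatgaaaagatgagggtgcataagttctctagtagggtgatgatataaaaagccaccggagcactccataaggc
IL6, chr7:22726950-22727199, plus strand: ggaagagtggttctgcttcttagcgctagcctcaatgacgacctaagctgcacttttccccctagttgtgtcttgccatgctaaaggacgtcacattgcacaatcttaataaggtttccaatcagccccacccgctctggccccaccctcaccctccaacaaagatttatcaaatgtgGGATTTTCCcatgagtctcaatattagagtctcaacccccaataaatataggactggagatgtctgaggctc
CXCL1, chr4:73869143-73869392, plus strand: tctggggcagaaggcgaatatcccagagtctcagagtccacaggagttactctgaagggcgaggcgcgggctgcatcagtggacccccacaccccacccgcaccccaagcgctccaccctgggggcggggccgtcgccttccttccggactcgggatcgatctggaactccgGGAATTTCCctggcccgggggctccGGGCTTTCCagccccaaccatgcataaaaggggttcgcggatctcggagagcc
CXCL2, chr4:74099196-74099445, minus strand: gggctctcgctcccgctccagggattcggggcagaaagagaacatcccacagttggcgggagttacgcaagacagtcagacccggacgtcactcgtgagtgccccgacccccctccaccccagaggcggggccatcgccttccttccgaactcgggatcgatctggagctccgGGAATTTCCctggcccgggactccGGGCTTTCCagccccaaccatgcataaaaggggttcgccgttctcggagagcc
Each of CXCL1 and CXCL2 held the motif at 2 places, and the capitals in both genes lie in stretches of nearly the same letters. The 5.48% of all 27305 promoters of this length that held the motif compare with 7 of the 13 promoters found among the 15 cytokine and chemokine genes that rose in N-Mac.

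In the promoters of mitotic genes, capitals mark TTTGAA, the core of the cell cycle homology region, and CCAAT, the letters of the NF-Y box, again on both strands.
PLK1, chr16:23678639-23678888, plus strand: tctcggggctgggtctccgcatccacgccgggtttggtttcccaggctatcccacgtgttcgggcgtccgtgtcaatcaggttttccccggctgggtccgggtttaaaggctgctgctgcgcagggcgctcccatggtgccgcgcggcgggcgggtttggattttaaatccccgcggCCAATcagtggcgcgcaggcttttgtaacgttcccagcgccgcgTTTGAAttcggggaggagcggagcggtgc
KIF20A, chr5:138178862-138179111, plus strand: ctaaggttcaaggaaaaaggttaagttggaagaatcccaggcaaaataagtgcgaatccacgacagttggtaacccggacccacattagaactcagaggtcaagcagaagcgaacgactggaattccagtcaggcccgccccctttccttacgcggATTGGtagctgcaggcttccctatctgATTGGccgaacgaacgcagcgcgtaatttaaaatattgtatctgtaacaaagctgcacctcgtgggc
CDC20, chr1:43358731-43358980, plus strand: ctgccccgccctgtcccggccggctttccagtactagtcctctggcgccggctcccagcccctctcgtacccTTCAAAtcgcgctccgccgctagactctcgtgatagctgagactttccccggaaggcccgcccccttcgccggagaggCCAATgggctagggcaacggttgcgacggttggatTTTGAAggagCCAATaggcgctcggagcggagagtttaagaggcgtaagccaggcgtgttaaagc
TTTGAA was present in 12 of the 20 promoters found for the 24 mitotic genes, and in 13.6% of all promoters. CCAAT was present in 17 of the 20, and in 33% of all promoters. Of the promoters printed, that of KIF20A holds CCAAT without TTTGAA, and so does that of CCNB1, which is not shown. A match of letters is not a bound site, and the promoters were chosen with the expression results known.

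Total counts were between 21031084 and 22141822 in the N-Mac libraries and between 23373761 and 25453736 in the untreated libraries. The 50 genes with the most counts took between 13.4% and 13.8% of an N-Mac library and between 12.4% and 12.5% of an untreated one. On the first principal component of the 18 libraries of batch 2, which held 50.1% of the variance, the N-Mac libraries lay between 24.1 and 26.4 and the untreated libraries between -73.3 and -59.9. Untreated replicate 3, the one at -59.9, had the highest untreated levels of CXCL8, IL24, DDIT3, HSPA5 and CDKN1A and the lowest of KIF20A, TYMS and CCND1, and replicate 2, at -73.3, lay at the other end in each. Without replicate 3 the number of differentially expressed genes described next was 10561, without replicate 2 it was 10266, and each of the 8 genes kept its call and direction. All 10 markers of a mesenchymal breast cancer line had a mean above 1 CPM in untreated or N-Mac cells. So did 5 of 10 luminal and 4 of 10 fibroblast markers. The estrogen and progesterone receptors had no more than 7 and 2 counts in any of the untreated, N-Mac and CKI libraries. The fibroblast marker TWIST2 had no more than 1 count in these libraries, whereas COL1A1 had 289 to 425. The summed level of the 10 mesenchymal markers was 6044 to 6690 CPM in untreated cells and 3627 to 3772 in N-Mac cells. That of 10 luminal markers was 835.2 to 913.9 and 444.1 to 499.2 CPM, mostly keratin 19 and XBP1, and that of 10 fibroblast markers was 35.38 to 46.05 and 28.06 to 31.37 CPM. Their part in the results below was not tested. Of the tested markers 2 rose and 7 fell among 10 mesenchymal ones, 2 rose and 4 fell among 7 luminal ones, and 1 rose and 1 fell among 6 fibroblast ones.

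Differences between N-Mac and untreated cells were broad. Of 14446 genes with enough counts for a test, 10484 (72.6%) were differentially expressed (DE) at an adjusted p-value under 0.05 in edgeR's quasi-likelihood test, 5278 of them higher (36.5%) and 5206 lower (36%). Most differences were small, and 2658 genes (18.4%) also changed at least 2-fold, 1240 of them higher (8.58%) and 1418 lower (9.82%). The 3 libraries of 1 group lay entirely above or below those of the other in 10896 genes (75.4%), above in 38% and below in 37.4% of those tested. Because of this high background, a list with about 7 in every 10 of its members DE is no result about that list, and the counts below are to be read against these shares. The median log2 fold change over all genes tested was 0.01. Levels are given as CPM after TMM scaling, with the SD over 3 libraries, and log2 fold changes are N-Mac minus untreated with their standard error (SE). Values that follow a gene in parentheses, or a gene that rose by an amount, are log2 fold changes.

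**Figure D1:**
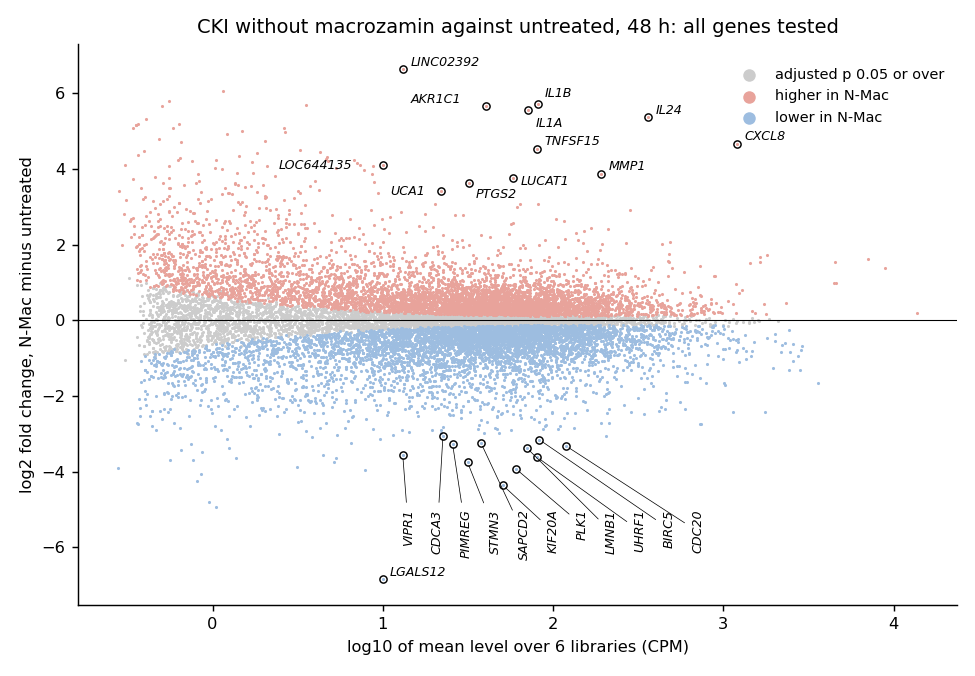
Each point is 1 of the 14446 genes tested, with the log10 of its mean level in CPM over the 6 libraries on the x axis and its log2 fold change, N-Mac minus untreated, on the y axis. The 12 named genes that rose most reach from 3.41 (UCA1) to 6.63 (LINC02392), and the 12 that fell most from -3.05 (CDCA3) to -6.84 (LGALS12).

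Over genes whose mean reached 10 CPM, 5 of the 12 largest rises were in cytokines, namely IL1B, IL1A, IL24, CXCL8 and TNFSF15. CXCL8, the neutrophil attractant interleukin 8, was at 86.8, 69.7 and 116 CPM in the untreated libraries and at 2273, 2380.4 and 2273 CPM in the N-Mac libraries. Its log2 fold change was 4.66 (SE 0.14, adjusted p = 2.04e-13 in edgeR's quasi-likelihood test). IL24, a cytokine of the interleukin 10 family, stood at 16.5, 11.2 and 23.7 CPM without treatment and at 709.8, 703 and 711 CPM with N-Mac, a log2 fold change of 5.36 (SE 0.16). In both genes every N-Mac library was above every untreated one.

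The interleukin 1 cytokines, which start inflammatory signalling in neighbouring cells, rose by similar amounts from low levels. IL1B was at 2.92, 2.76 and 3.37 CPM in untreated cells and at 163, 165 and 150.3 CPM in N-Mac cells, and its log2 fold change was 5.72 (SE 0.0827). For IL1A the levels were 3.29, 1.74 and 3.84 CPM in untreated and 135, 142 and 142 CPM in N-Mac libraries, with a log2 fold change of 5.55 (SE 0.13). The 2 groups did not overlap in either gene. TNFSF15, a ligand of the tumour necrosis factor family, was at 6.64 ± 0.993 CPM in untreated and 155 ± 7.46 CPM in N-Mac cells (SD, n = 3 each), a log2 fold change of 4.54.

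Enzymes and noncoding transcripts made up the rest of the largest rises. PTGS2, the inducible cyclooxygenase of prostaglandin synthesis, was at 4.77, 3.83 and 5.7 CPM in untreated libraries and 57.5, 60.3 and 59.7 CPM with N-Mac (log2 fold change 3.63, SE 0.0977). MMP1, the interstitial collagenase, was at 24.4, 20.3 and 28.2 CPM in untreated and 360.2, 346 and 369 CPM in N-Mac libraries (log2 fold change 3.88, SE 0.0883). AKR1C1, an aldo-keto reductase that reduces steroids and reactive carbonyls, was at 1.27, 1.56 and 1.9 CPM in untreated and 80.6, 81.7 and 76.3 CPM in N-Mac libraries (log2 fold change 5.65). The AKR1C genes are close copies of each other, so that the split of reads between them is uncertain. None of these groups overlapped. Among the noncoding transcripts, LUCAT1 went from 7.94 to 109 CPM (3.77), UCA1 from 3.76 to 39.9 (3.41) and LOC644135 from 1.09 to 19 (4.10), with log2 fold changes in parentheses. LINC02392 had 6, 1 and 11 counts in the untreated libraries and 603, 531 and 578 counts in the N-Mac libraries. Its log2 fold change of 6.63 is the largest of these but rests on few counts on the untreated side.

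Of 17 tested members of the list of secreted cytokines and chemokines 15 rose and 1 fell, with a median log2 fold change of 2.73. IL6, which drives the acute phase response and STAT3 signalling, was at 27.7, 27 and 29.5 CPM without treatment and 179, 183 and 177 CPM with N-Mac, a log2 fold change of 2.67 (SE 0.0564). The chemokine CXCL2 was at 16.3, 13.9 and 21.6 CPM in untreated and 141, 154 and 143 CPM in N-Mac libraries (3.08, SE 0.10). Its close relatives CXCL1 and CXCL3, which attract neutrophils through the same receptor, rose by 2.13 and 2.73. Reads may be shared among these 3 near-identical genes, so that their separate values are uncertain. The colony-stimulating factors CSF2 and CSF3, which act on granulocyte and macrophage precursors, rose by 2.79 and 4.08, the latter from 0.976 ± 0.136 CPM (SD, n = 3). The interleukin 6 family members IL11 and LIF rose by 1.04 and 1.24, and IL32 by 0.79.

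Some members of this list were close to the limit of detection. The chemokine CCL20 had 0, 4 and 5 counts in the untreated libraries and 152, 143 and 160 counts in the N-Mac libraries, and TNF had 3, 1 and 2 against 14, 10 and 14. Both were DE, and because the untreated counts were so few no fold is given for them. CCL5, an attractant of T cells, was the member that fell, with 16, 19 and 11 counts in untreated and 2, 0 and 9 in N-Mac libraries. CSF1, the macrophage growth factor, was abundant and did not pass the test, at 591 ± 44.6 CPM in untreated and 554 ± 30.6 CPM in N-Mac cells (SD, n = 3), with a log2 fold change of -0.10 (95% interval -0.23 to 0.04), though it passed without untreated replicate 2 (-0.16).

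**Figure D2:**
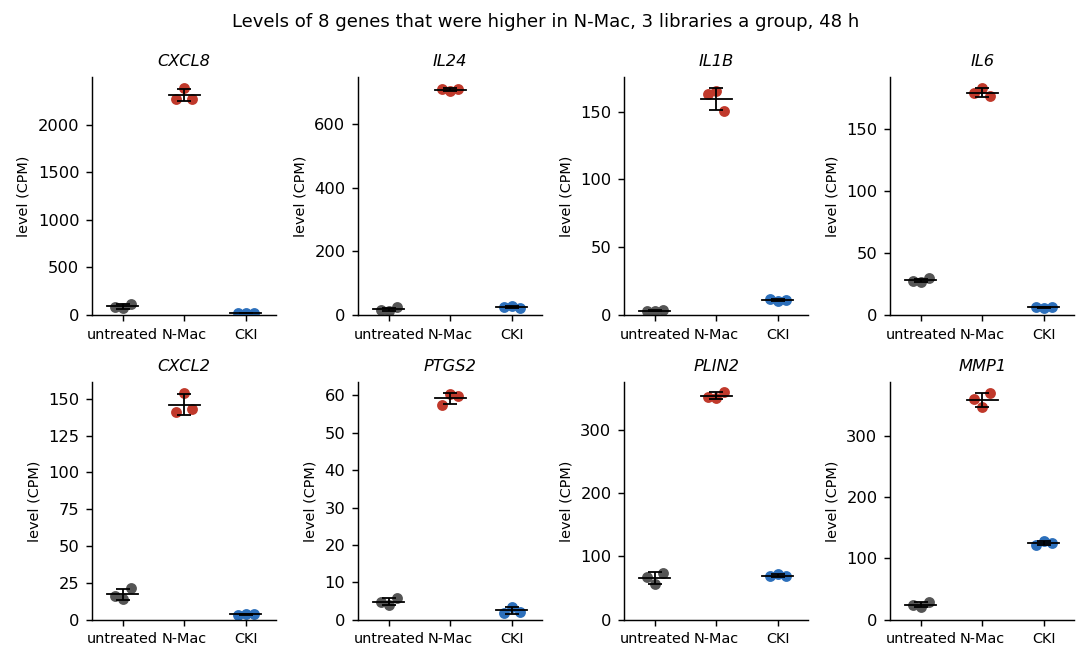
Each panel shows 1 gene, with its level in CPM on a linear y axis that starts at 0 and the untreated, N-Mac and CKI groups on the x axis. Points are single libraries, and the bars give the mean and SD of 3. In all 8 genes the N-Mac libraries sit above every untreated and every CKI library, for CXCL8 at a mean of 2309 CPM against 90.9 and 21.5.

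At the other end, all 24 mitotic genes fell, each by at least 2-fold, with a median log2 fold change of -2.42. KIF20A, a kinesin needed for cytokinesis, was at 98.1, 107 and 85 CPM in untreated libraries and 4.27, 4.04 and 5.81 CPM with N-Mac, a log2 fold change of -4.36 (SE 0.12, adjusted p = 7.93e-14 in edgeR's quasi-likelihood test). PLK1, the kinase that drives entry into mitosis, was at 116, 116 and 108 CPM in untreated and 7.23, 7.29 and 7.95 CPM in N-Mac libraries (-3.92, SE 0.0698). CDC20, the activator of the anaphase-promoting complex, was at 219, 217 and 214 CPM in untreated and 22.1, 23.1 and 20.1 CPM in N-Mac libraries (-3.32, SE 0.062). The groups did not overlap in any of these 3 genes. CCNB1, the mitotic cyclin B1, went from 234 to 32.4 CPM (-2.85), the proliferation marker MKI67 fell (-2.70), and the smallest fall was that of ECT2 (-1.08).

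Several further genes among the 12 largest falls belong to the dividing cell. LMNB1, the B-type lamin of the nuclear envelope, fell (-3.37), as did UHRF1, which maintains DNA methylation behind the replication fork (-3.61), and BIRC5, the chromosomal passenger survivin (-3.16). PIMREG, SAPCD2 and CDCA3 fell (-3.27, -3.24 and -3.05). The remaining ones have other known roles. STMN3, a microtubule-destabilizing stathmin of neurons, was at 58.1, 68.3 and 49.3 CPM in untreated and 4.27, 4.56 and 4.24 CPM in N-Mac libraries (-3.75). VIPR1, the receptor of vasoactive intestinal peptide, was at 24.5, 28 and 19.96 CPM in untreated and 1.86, 1.74 and 2.5 CPM in N-Mac libraries (-3.56). The galectin LGALS12 had 453, 655 and 272 counts in untreated libraries and 3, 2 and 6 in N-Mac libraries, so that few reads of it were left, and its untreated libraries differed among themselves by over 2-fold.

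The genes of DNA replication fell throughout as well, all 25 of them, 21 by at least 2-fold, with a median of -1.50. TYMS, which makes thymidylate, was at 85.2, 93.1 and 74.1 CPM without treatment and 16.1, 13.4 and 15.9 CPM with N-Mac (-2.47, SE 0.0905). CDT1, which loads the replicative helicase, fell (-2.33), as did the ribonucleotide reductase subunit RRM2 (-2.05). The subunits of the helicase itself fell too, with log2 fold changes from -1.33 for MCM7 to -2.02 for MCM5. The smallest fall was in GINS3 (-0.59). In RNA from whole cultures, fewer cells of a kind, here cells in cycle, and less RNA of these genes per cell cannot be told apart.

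Regulators of the G1 phase moved in both directions, 13 of 19 tested genes lower and 4 higher. CCND1, cyclin D1, was at 749, 777 and 661 CPM in untreated and 194, 191 and 197 CPM in N-Mac libraries (-1.91, SE 0.0639). CDKN1A, the p21 inhibitor of cyclin-dependent kinases, went the other way, at 246, 215 and 274 CPM in untreated and 729, 717 and 693 CPM in N-Mac libraries (1.54, SE 0.0735). These groups stood apart in both genes. The 2 cyclin E genes went opposite ways, CCNE1 rising by 0.31 and CCNE2 falling (-2.31). The E2F factors that switch on replication genes fell for E2F1 (-1.30) and E2F2 (-3.57) and rose for E2F3 (0.18). CCND2 rose by 1.36 from a low level, and CDKN2C, which inhibits CDK4 and CDK6, fell (-2.34).

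**Figure D3:**
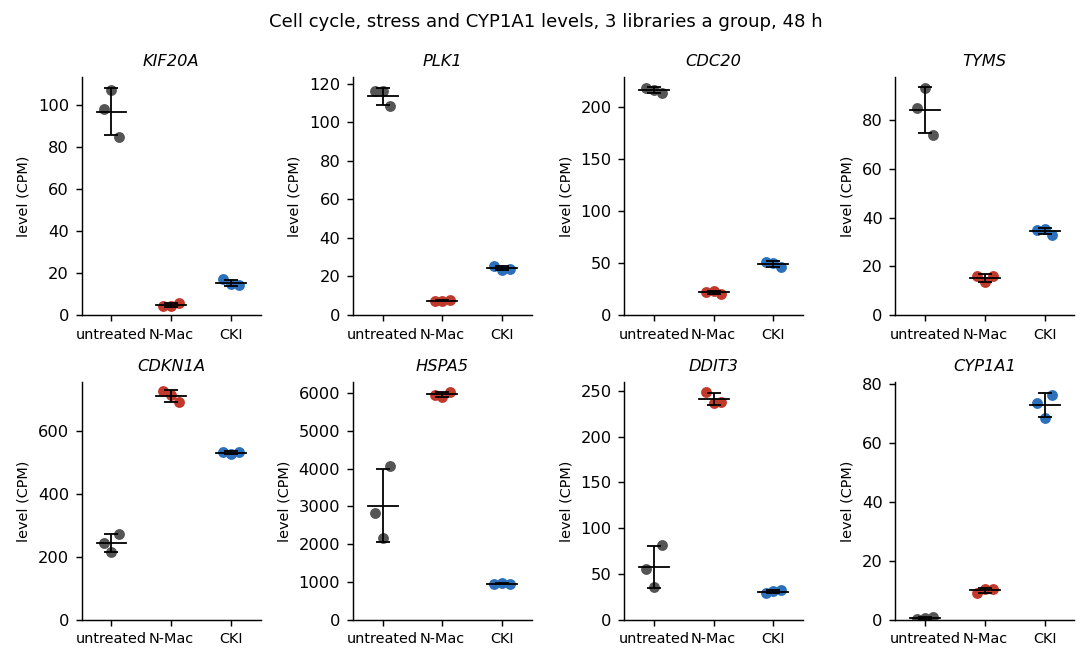
Panels are drawn as in the plot of cytokine levels, with the level in CPM on the y axis, the 3 groups on the x axis, points for libraries and bars for the mean and SD of 3. PLK1 and KIF20A are lowest with N-Mac, CDKN1A is highest with N-Mac, HSPA5 and DDIT3 lie above untreated with N-Mac and below it with CKI, and CYP1A1 is at a mean of 10.04 CPM with N-Mac against 73 with CKI.

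Genes of homologous recombination and Fanconi repair, which mend broken and crosslinked DNA, were lower. In this list 17 of 18 fell, with a median of -1.17, and examples are BRCA1 (-1.16), RAD51AP1 (-1.64), BLM (-1.56) and EXO1 (-1.56). PALB2, which bridges BRCA1 and BRCA2, did not pass the test, at 0.07 (95% interval -0.09 to 0.23). The repair genes of alkylated and oxidized bases were examined because the group that macrozamin carries is an alkylating agent once released. Neither group of the comparison with untreated cells was given macrozamin. Of 15 tested, 10 fell and 3 rose, with a median of -0.35. DNA ligase LIG1 (-2.10) and the uracil glycosylase UNG (-1.66) fell, both of which also work at replication forks, while polymerase POLB rose by 0.91 and the demethylase ALKBH3 by 0.36. MGMT, which removes methyl groups from guanine, had too few reads for a test in both groups, with means of 0.0293 and 0.0308 CPM. Against CKI, which holds macrozamin, 5 of 15 tested genes of this list were higher with N-Mac (36.6% of all genes were). The lower ones numbered 8 (36.2% of all genes were), and the median difference was -0.21. Against untreated cells, 9 of 16 genes of the DNA damage response list rose and 1 fell, so that 62.5% of its genes were DE beside 72.6% of all genes. GADD45A, a growth arrest gene, was at 104, 84.6 and 131 CPM in untreated and 191, 196 and 200.4 CPM in N-Mac libraries (0.87), and the p53 targets MDM2 and ZMAT3 rose by 0.37 and 0.65, whereas TP53I3 fell (-1.03). MDA-MB-231 cells are known to carry mutant p53.

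Stress genes of the ATF4 and CHOP branch were mostly higher, 17 of 20 up and 2 down, with a median of 0.57. DDIT3, which encodes CHOP, a factor linked to cell death under stress of the endoplasmic reticulum, was at 55.8, 36.2 and 82 CPM in untreated libraries and 249, 237 and 238 CPM with N-Mac. Its log2 fold change was 2.05 (SE 0.18), and although its untreated libraries were spread over 2-fold, all lay below the N-Mac libraries. ATF3, a partner factor, was at 17.8, 13.6 and 25 CPM in untreated and 88.2, 91.6 and 93.6 CPM in N-Mac libraries (2.28). The cystine transporter SLC7A11 rose by 1.63, the secreted stress factor GDF15 by 1.54 and the phosphatase subunit PPP1R15A, which restarts translation, by 1.39. ATF5 and SHMT2 fell (-1.60 and -0.41).

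Of the chaperones and folding factors of the endoplasmic reticulum 12 of 18 rose and 3 fell, with a median of 0.25. HSPA5, the chaperone BiP that binds unfolded proteins, was at 2821, 2173 and 4064 CPM without treatment and 5948, 5909 and 6038 CPM with N-Mac (0.98, SE 0.15). The untreated libraries differed nearly 2-fold among themselves, and the N-Mac libraries were above all of them. HERPUD1 and DNAJB9, both targets of the unfolded protein response, rose by 1.00 and 0.81. CRELD2 (-1.60), SDF2L1 (-0.59) and the calreticulin gene CALR (-0.54) fell.

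Oxidative stress genes under NRF2 rose in 13 of 18 cases and fell in 2. Beside AKR1C1, the ferritin chains that store iron were at high levels, FTL at 3488, 3278 and 3735 CPM in untreated and 11839, 10831 and 9444 CPM in N-Mac libraries (1.61) and FTH1 with a log2 fold change of 1.54. Both ferritin genes have many processed copies in the genome, which makes their counts uncertain. SRXN1 rose by 1.29 and GCLC, which makes glutathione, by 1.05. NQO1, a classic member of the list, did not pass the test at 154 ± 12.7 and 153 ± 8.22 CPM (SD, n = 3; log2 fold change -0.02, 95% interval -0.15 to 0.12, and 0.0581 with library sizes alone in place of TMM).

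Of 5 tested targets of the aryl hydrocarbon receptor, which senses aromatic foreign compounds, 4 rose. CYP1A1, the most inducible of them, was at 0.37, 0.669 and 0.821 CPM in untreated and 9.05, 10.6 and 10.4 CPM in N-Mac libraries (4.01, SE 0.19). CYP1B1 rose by 1.22 to 373 ± 9.44 CPM, TIPARP by 1.94 and the repressor AHRR by 0.86. NQO1 is the member that did not pass.

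Genes of interferon signalling were lower in 23 of 25 cases, with a median of -1.20. IFIT1, an antiviral sensor of RNA caps, was at 99.2, 115 and 85.6 CPM in untreated and 23.1, 23.1 and 23.3 CPM in N-Mac libraries (-2.11, SE 0.0889). The ubiquitin-like modifier ISG15 (-2.04), the RNA sensor OAS3 (-2.28) and IFI44L (-2.99) fell. STAT2, a transcription factor of the pathway, was the member that rose (0.43).

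The cytoskeleton was the concern of the study's migration assays, and most of its genes were lower with N-Mac. In the actin and SRF list 20 of 24 fell and 1 rose, with a median of -0.79. ACTB, beta-actin, was at 5541, 5779.9 and 5086 CPM in untreated libraries and 1806, 1769 and 1652 CPM with N-Mac (-1.65, SE 0.066). ACTG1, gamma-actin (-2.42), the crosslinker ACTN4 (-1.70) and filamin FLNA (-1.30) fell as well. ACTB and ACTG1 are close in coding sequence, so that their split is uncertain. CNN1 was the member that rose, from 10, 6 and 3 counts to 30, 39 and 23 counts. The filamin FLNC (0.04, 95% interval -0.10 to 0.17) did not pass.

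Among integrins, focal adhesion and caveolar genes, 15 of 21 fell and 5 rose. The caveolar coat gene CAV1 was at 749, 821 and 718 CPM in untreated and 154, 146 and 149 CPM in N-Mac libraries (-2.35, SE 0.0621), and its partners CAVIN3 and CAVIN2 fell (-2.46 and -2.14). The integrin subunits went both ways, since ITGB8, ITGB4 and ITGB5 fell (-2.53, -1.92 and -1.45) while ITGB3, ITGA2 and ITGA5 rose by 1.94, 1.01 and 0.81. Targets of YAP and TEAD, which respond to tension, were lower in 7 of 12 cases and higher in 3. The secreted matrix protein CTGF (-2.37) and the receptor kinase AXL (-1.52) fell, whereas tissue factor F3 rose by 0.72 and CYR61 by 0.20, a call lost without untreated replicate 1 or 2 (0.18 and 0.15).

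Matrix and protease genes showed no common direction, 8 of 20 higher and 11 lower. TIMP3, an inhibitor of matrix proteases, was at 699, 826 and 596 CPM in untreated and 134, 134 and 136 CPM in N-Mac libraries (-2.39), and HAS2 and CEMIP, which make and degrade hyaluronan, fell (-2.17 and -2.08). Fibronectin FN1 fell (-1.15), and MMP3 rose by 3.57 from 0.212 ± 0.153 CPM (SD, n = 3). In the TGF-beta list 7 of 18 rose and 6 fell. The ligands BMP4 (-2.86) and TGFB2 (-1.24) and the BMP target ID1 (-2.53) fell, and ID2, the receptor TGFBR1 and SKIL rose by 1.32, 0.89 and 0.97.

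Genes of the EGFR and ERK pathway rose in 16 of 23 cases and fell in 4. EGFR itself was at 156, 143 and 169 CPM in untreated and 354, 395 and 379.8 CPM in N-Mac libraries (1.26), the immediate-early factor EGR1 rose by 2.63, and the phosphatase DUSP5, which acts as feedback on ERK, by 2.08. The ligand gene BTC (-1.57) and the receptor gene ERBB2 (-1.15) fell.

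Genes of lipid metabolism went in different directions. Of 24 cholesterol genes 14 fell and 4 rose (7 rose without untreated replicate 3), of 8 liver X receptor targets 6 fell, and of 7 tested PPAR targets 6 rose. PLIN2, which coats lipid droplets, was at 68, 56 and 73.6 CPM in untreated and 352, 349 and 359.9 CPM in N-Mac libraries (2.42, SE 0.0783). ANGPTL4, an inhibitor of lipoprotein lipase, rose by 2.18 and PDK4 by 1.61. Lower were the lipogenic factor SREBF1 (-2.34) and MVK of the mevalonate pathway (-1.79), while the methylsterol oxidase MSMO1 rose by 0.69. In the list of glycolysis and hypoxia response 10 of 24 rose and 9 fell. Glycolytic enzymes were among the falls, PKM at -1.25 and GAPDH at -1.07, and hypoxia-responsive genes among the rises, NDRG1 at 1.68 and ADM at 1.29.

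The study singled out a small set of migration genes from those DE with CKI in these cells, and since it chose them on samples of this series, their calls are not independent evidence. With ACTB added the set held 15 genes, of which all but the estrogen receptor gene ESR1 had enough counts for a test, and 10 fell and 2 rose in N-Mac. Beside CCND1 and ACTB, the falls included AKT1 (-0.97), AKT2 (-0.75), CTNNB1 (-0.64), RB1 (-0.29), CDK4 (-0.22) and CDH1 (-0.86). CDH1, the epithelial cadherin, had only 24, 23 and 21 counts in untreated and 4, 17 and 14 in N-Mac libraries, and its call was lost in 7 alternative settings at the same threshold, among them without N-Mac replicate 1, where its log2 fold change was -0.45. APC rose by 0.18, a call lost without N-Mac replicate 2 or 3 or untreated replicate 1 (0.15, 0.14 and 0.16). PIK3CA (-0.10, 95% interval -0.24 to 0.04) and JAK2 (-0.02, 95% interval -0.27 to 0.24, and 0.0554 with library sizes alone in place of TMM) did not pass, although PIK3CA did without N-Mac replicate 3 (-0.16).

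**Figure D4:**
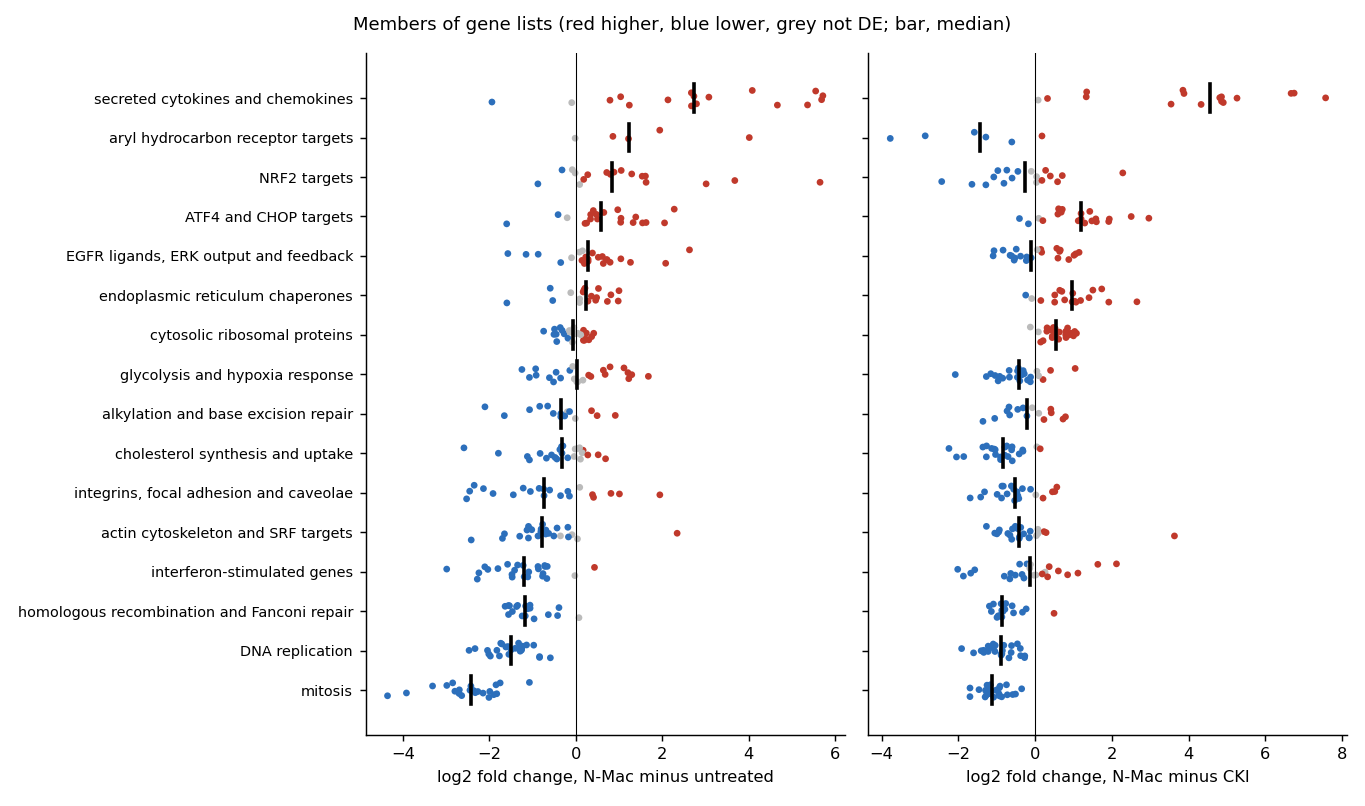
Each point is 1 tested member of the list named on the y axis, and the x axes give its log2 fold change, N-Mac minus untreated on the left and N-Mac minus CKI on the right. Red points rose, blue points fell, grey points were not DE, and black bars are medians, which on the left run from -2.42 (mitosis) to 2.73 (secreted cytokines and chemokines).

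N-Mac was then compared directly with CKI, which asks what differed when macrozamin was left out. Of 14469 genes tested, 10540 (72.8%) were DE, 5297 higher with N-Mac (36.6%) and 5243 lower (36.2%), and 2151 (14.9%) differed at least 2-fold, 6.81% of all tested higher and 8.06% lower. The N-Mac and CKI libraries did not overlap in 74.7% of genes, with N-Mac above in 37.5% and below in 37.2%. Against untreated cells CKI itself had 9847 DE genes of 14392 (68.4%) in this batch, 34.1% higher and 34.4% lower, 12.5% differed at least 2-fold, and its groups did not overlap in 71.8%. The mixtures with a single component removed lay on the other side of 0 from CKI on the first principal component, N-Nme at 16.9 to 18.5, N-Tri at 23.8 to 26.1, N-Mac at 24.1 to 26.4 and N-Omt at 47.4 to 49.3, against -49.9 to -48.4 for CKI. N-Omt stood apart from the other mixtures there, and on the second component (18.6% of the variance) it lay between -28.5 and -25.4 and CKI between -44.7 and -40.8, while N-Mac lay between 5.23 and 9.19, N-Tri between 11.8 and 13.9 and N-Nme between 22.95 and 24.9. What went with macrozamin and what the reconstituted mixtures share therefore cannot be told apart in N-Mac against CKI alone.

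Over genes whose mean reached 10 CPM, those named as furthest above their CKI level were secreted proteins apart from the enzyme gene PTGS2. CXCL8 was at 20.7, 23.3 and 20.5 CPM in the CKI libraries, below every untreated library, and N-Mac exceeded CKI by 6.75 on the log2 scale (SE 0.061). IL6 was at 6.03, 6.01 and 6.54 CPM with CKI, a difference of 4.85 (SE 0.0636). CXCL2 was at 3.43, 3.71 and 4.24 CPM with CKI, a difference of 5.26. For these 3 genes the CKI libraries were lowest, the untreated libraries intermediate and the N-Mac libraries highest, with no overlap. CXCL1 and CXCL3 differed by 4.90 and 4.32, LCN2, the iron-carrier binding lipocalin, by 4.96, PTGS2 by 4.55 and IL24 by 4.86. In the whole list of cytokines and chemokines 15 of 16 tested members were higher with N-Mac than with CKI.

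On the low side, F2RL3, a thrombin receptor of platelets, had 110, 83 and 61 counts in untreated, 20, 17 and 10 in N-Mac and 508, 630 and 607 in CKI libraries, so that it moved in opposite directions. PLXNA1, a semaphorin receptor, was at 370.4, 423 and 303 CPM in untreated, 40.6, 47.3 and 45.2 in N-Mac and 455, 422 and 439 CPM in CKI libraries, a difference of -3.31 between the mixtures (SE 0.0537). The untreated and CKI libraries of PLXNA1 overlapped, and the N-Mac libraries were below both. Also lower with N-Mac than with CKI were the laminin chain LAMA5 (-2.999), BMP4 (-3.12), RARRES2, which encodes the attractant chemerin (-3.14), VSTM2L (-3.12) and SPINK4 (-3.05). These low levels were not particular to N-Mac. F2RL3 had means of 0.827, 1.12 and 0.994 CPM with N-Nme, N-Omt and N-Tri, against 26.9 with CKI. PLXNA1 had means of 51.9, 61.1 and 52 CPM in the same order. LAMA5, BMP4, RARRES2, VSTM2L and SPINK4 likewise had means below their CKI means with each of these mixtures. CYP1A1 was at 73.8, 68.7 and 76.6 CPM with CKI, so that N-Mac lay between untreated and CKI (-2.86, SE 0.0695), and 5 of 6 tested targets of the aryl hydrocarbon receptor were lower with N-Mac than with CKI.

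Stress genes differed in the same comparison. The ER chaperones were higher with N-Mac than with CKI in 16 of 18 cases, with a median difference of 0.97, and ATF4 and CHOP targets in 17 of 20, with a median of 1.20. HSPA5 was at 948, 961 and 937 CPM with CKI (2.65, SE 0.0451) and DDIT3 at 29.5, 31 and 32.2 CPM (2.96, SE 0.0504). Both were lowest with CKI and highest with N-Mac. The NRF2 targets had no such direction, 6 of 18 being higher with N-Mac than with CKI and 9 lower, with a median of -0.27. Against untreated cells all 18 of them were higher with CKI. Cholesterol genes were lower with N-Mac than with CKI in 22 of 24 cases, with TM7SF2 at -2.24, and ABCA1, the cholesterol exporter, was higher by 2.76. Against untreated cells, 20 of 24 cholesterol genes were higher with CKI (34.1% of all genes were) and 2 lower, with a median of 0.42. No liver X receptor target, ABCA1 among them, was above its untreated level with N-Mac, the highest log2 fold change being -0.10.

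Replication and mitotic genes were lower with N-Mac than with CKI in all 25 and all 24 cases, with median differences of -0.88 and -1.11 beside 0.01 over all genes. PLK1 was at 25.5, 23.5 and 23.9 CPM with CKI (-1.70, SE 0.0831) and TOP2A, which untangles DNA, at 246 ± 4.59 CPM against 89.4 ± 3.55 with N-Mac (SD, n = 3; -1.46). CKI libraries lay between untreated and N-Mac libraries in both. CCND1 (-1.11) and ACTB (-0.46) were lower with N-Mac, and CDKN1A was higher (0.42). The interferon list had no common direction against CKI, with a median difference of -0.14, RSAD2 and OASL being higher with N-Mac (2.12 and 1.63) and IFI6 and IRF7 lower (-2.02 and -1.68).

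The other single-removal mixtures place these values. Against the mean of N-Nme, N-Omt and N-Tri, a comparison chosen after the data had been seen, 5763 of 14803 genes (38.9%) were DE but 181 (1.22%) by at least 2-fold. Against each mixture alone the share DE by at least 2-fold was 1.52% for N-Nme, 8.16% for N-Omt and 1.06% for N-Tri. CXCL8 was at 843 ± 42.8 CPM with N-Nme, 708 ± 22.1 with N-Omt and 1277 ± 105 with N-Tri (SD, n = 3 each), so that it was above untreated in each and highest with N-Mac, which exceeded their mean by 1.34 on the log2 scale (adjusted p = 9.83e-20 in edgeR's quasi-likelihood test). IL6 was at 37.6 ± 2.62, 104 ± 3.78 and 64 ± 3.38 CPM in the same order, with an excess of 1.51 for N-Mac over their mean. Of 16 tested cytokines and chemokines 14 were higher with N-Mac than this mean (22.2% of all genes were) and none was lower (16.7% of all genes), with a median difference of 1.06 beside 0.02 over all genes. This holds for the mean only, since against N-Omt alone IL1B (-0.57), CSF1 (-0.36) and LIF (-0.29) were lower with N-Mac. The median differences from N-Nme, N-Omt and N-Tri were 1.38, 0.79 and 0.82.

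Other genes that rose with N-Mac were not highest with it. IL1B was at 236 ± 5.73 CPM with N-Omt, above N-Mac (-0.57 for N-Mac minus N-Omt, adjusted p = 1.01e-08 in edgeR's quasi-likelihood test), and at 36.9 ± 5.09 and 71.5 ± 5.36 CPM with N-Nme and N-Tri. TNFSF15 (-0.21), AKR1C1 (-1.24) and UCA1 (-1.29) were likewise lower with N-Mac than with N-Omt, where their levels were 179 ± 3.21, 188 ± 4.9 and 97.9 ± 1.58 CPM. MMP1 was at 428 ± 14.8 CPM with N-Nme, which exceeded N-Mac (-0.26). HSPA5 stood at 8291 ± 188 and 6436 ± 272 CPM with N-Nme and N-Tri, above its mean of 5965 CPM with N-Mac.

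Cell cycle genes were also low with the other mixtures. PLK1 was at 12 ± 0.486 CPM with N-Nme, 3.63 ± 0.515 with N-Omt and 7.19 ± 0.691 with N-Tri, all below its CKI libraries, and KIF20A was at 8.46 ± 1.25, 2.48 ± 0.0547 and 4.08 ± 0.983 CPM in the same order. Against the mean of these mixtures 16 of 24 mitotic and 22 of 25 replication genes were higher with N-Mac and none was lower. Of all genes 22.2% were higher and 16.7% lower, and the median differences of the lists were 0.32 and 0.48. This holds for the mean only. Against N-Nme alone 21 mitotic genes were lower with N-Mac and none higher. Against N-Tri 3 were lower and 4 higher, and against N-Omt 23 were higher and none lower. Of the replication genes 5, 24 and 17 were higher than with N-Nme, N-Omt and N-Tri, and 1, 0 and 0 lower. The mixtures differed, with median differences for mitotic genes of -0.45 for N-Mac minus N-Nme, 1.41 for N-Mac minus N-Omt and -0.0025 for N-Mac minus N-Tri. For replication genes these medians were 0.13, 1.11 and 0.33 in the same order. MKI67 and RRM2 were higher with N-Mac than with N-Omt by 3.07 and 3.30 on the log2 scale.

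**Figure D5:**
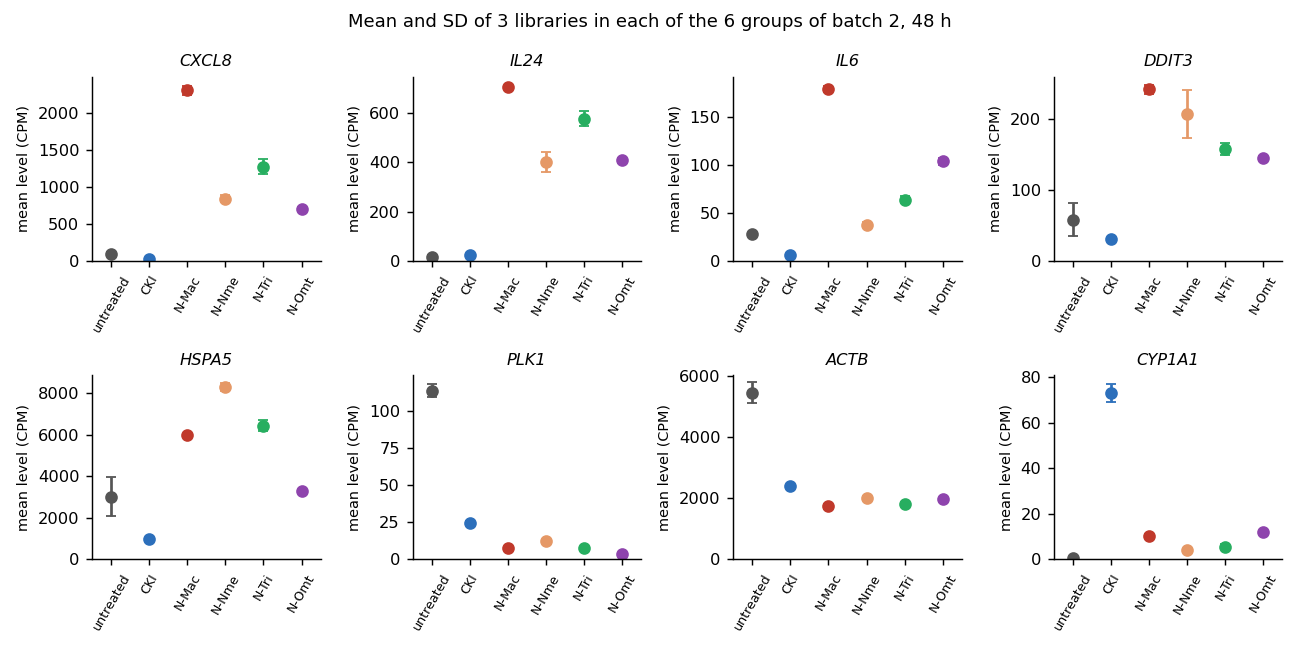
Each panel gives the mean level of 1 gene in CPM (y axis, linear from 0) with the SD of 3 libraries, for untreated cells, CKI and the 4 mixtures lacking 1 component (x axis). CXCL8, IL24, IL6 and DDIT3 are highest with N-Mac, and in all 4 the other removal mixtures also lie above CKI, whereas HSPA5 is highest with N-Nme and PLK1 lowest with N-Omt.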

How the data were processed

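RNA from MDA-MB-231 cells was sequenced as strand-specific, paired-end libraries made from oligo(dT)-selected RNA. The authors deposited raw read counts per gene for 54 libraries in 1 table of 27978 genes, of which 3798 had no count. Per the submitters' processing notes, hg19, FastQC 0.11.4, Trim Galore 0.3.7, STAR 2.5.3a, featureCounts of Subread 1.5.2 and edgeR 3.22.3 were used, with the strand setting of the counting not given in the sources used here, so that reads of a gene and of an antisense partner may not be separated. Samples were grouped by the labels, and every column was used or matched to a sample by name.

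Counts were tested with edgeR 4.0.16 in R 4.3.3 (filterByExpr, TMM scaling, quasi-likelihood fit and test, 2-sided) on the 6 libraries of each comparison, with Benjamini-Hochberg adjustment over all genes tested and DE at an adjusted p-value under 0.05. The study's methods name no test for DE genes. The SE is the absolute log2 fold change divided by the root of the quasi-likelihood F, and intervals use the matching t distribution at 95%. CPM use the TMM factors of the 18 libraries of batch 2. With 3 against 3 libraries an exact 2-sided permutation test cannot go below 0.1, so none was run for single genes. Nothing in the labels says that the replicates came from separate cultures beyond the word biological. The p-values weigh each group difference against the spread between these samples, which the fit estimates partly from other genes. Total counts per library, 19160502 to 25453736 over untreated, N-Mac and CKI, set the counting error of low genes.

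Members and gene lists were chosen with earlier results of these data known. Named genes were the 12 largest rises and 12 largest falls (8 and 8 against CKI) among DE genes whose mean reached 10 CPM and whose groups did not overlap, up to 4 DE members of each list by size of change, further members where the account of a list needed them, and the study's migration genes with ACTB. Some genes that meet this rule are not reported here. There were 31 lists with 532 different genes, of which 507 could be tested. Replicates of a group had correlations of 0.993 to 0.995 and differed by more than counting noise in every pair, so that none was counted as a duplicate. On simulated counts of N-Mac against untreated (14446 genes, 200 changed 2-fold), 93% of changed genes were recovered with 8 false calls. Far fewer genes changed there than in the data, where 72.6% were DE. The simulation therefore does not show how scaling and false calls behave when most genes change. Its spread between replicates was the same for every gene and larger than the common value in the data (biological coefficient of variation 0.0558). The share recovered is thus not that of these data. Alternatives were RLE scaling or library sizes alone, DESeq2 1.42.0, 2 other filters on low counts, a joint fit of the 18 libraries, the replicate number as a block, leaving out every library once and a 2-fold minimum. The comparison with the other single-removal mixtures was added after the data were seen. Promoter sequences are from RefSeq (GRCh38.p14), matched by symbol. The count table's build is hg19, and no position was taken from it.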

Additional observations from a re-analysis of the deposited data

Results flagged for a closer look

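Among the genes named for the largest differences between N-Mac and CKI, those below were DE in opposite directions against untreated cells in the 2 mixtures. Choosing genes by that difference favours opposite directions, so their number is not given as a result, and the test of each difference is that of N-Mac against CKI in edgeR (adjusted p under 0.05). Both contrasts share the untreated libraries. Above untreated with N-Mac and below it with CKI were CXCL8, with log2 fold changes of 4.66 and -2.07 and a difference of 6.75, and CXCL2, with 3.08 and -2.16 and a difference of 5.26. The lipocalin gene LCN2 (2.21 and -2.73, difference 4.96), CXCL1 (2.13 and -2.76, difference 4.90), IL6 (2.67 and -2.17, difference 4.85), PTGS2 (3.63 and -0.90, difference 4.55) and CXCL3 (2.73 and -1.57, difference 4.32) had the same order.

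In the other direction, F2RL3 was at -2.33 with N-Mac and 2.90 with CKI, a difference of -5.22. RARRES2 (-1.93 and 1.23, difference -3.14), SPINK4 (-1.95 and 1.12, difference -3.05) and VSTM2L (-2.38 and 0.76, difference -3.12) were lower with N-Mac and higher with CKI than without treatment. The change with CKI was small in PLXNA1 (-3.04 and 0.28, difference -3.31), BMP4 (-2.86 and 0.28, difference -3.12) and LAMA5 (-2.71 and 0.31, difference -2.999), and the CKI and untreated libraries overlapped in PLXNA1 and BMP4. With N-Nme, N-Omt and N-Tri too, the flagged genes above CKI with N-Mac had means above their CKI means. Those below CKI with N-Mac had means below their CKI means in each of these mixtures as well. With 3 libraries in each group, no library was tested as an outlier.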

How the results depend on the processing

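The number of DE genes stayed within 1.5 times its value in every alternative at the same threshold. Since 72.6% of genes were DE against untreated cells, a rise could hardly pass this limit, so it mainly checks for a fall. For N-Mac against untreated it ran from 9744 to 10561 with 1 library left out and was 9887 with DESeq2, 10633 with library sizes alone and 10913 with no filter. For N-Mac against CKI it ran from 10031 to 10387 with 1 library left out, and for CKI against untreated from 9067 to 10042. A minimum of 2-fold left 2658, 2151 and 1797 genes in the 3 comparisons. Same-numbered N-Mac and untreated libraries did not deviate together (correlations of -0.0127, -0.00964 and -0.0282). No sign of pairing by number was thus seen, but with 3 libraries in each group this cannot exclude a paired design. With the replicate number as a block 10373, 10447 and 9802 genes were DE. With library sizes alone 55.9% of calls against untreated were higher, beside 50.3% with TMM.

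Among named genes, a sign turned only in genes that were not DE. With library sizes alone JAK2 was at 0.0554 and NQO1 at 0.0581. With 1 library left out JAK2 ran from -0.107 (without untreated replicate 3) to 0.0792 (untreated replicate 2), NQO1 from -0.0787 (untreated replicate 3) to 0.0370 (untreated replicate 2) and FLNC from -0.0254 (untreated replicate 2) to 0.0830 (N-Mac replicate 3). Apart from the 2-fold minimum, calls of genes named here were lost in APC, CDH1 and CYR61, each without certain single libraries, and also with DESeq2 (APC and CDH1), no filter (APC), library sizes alone (CDH1) and the replicate block (CDH1). CSF1 passed without untreated replicate 2 and PIK3CA without N-Mac replicate 3. Genes with few counts, such as CDH1, CCL5, CNN1 and TNF, are limited by depth. The cause of these shifts was not tested.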

Other observations

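Gene groups that the account above leaves out were mixed with N-Mac. In the list of insulin-like growth factor binding proteins and insulin signalling, 6 of 10 tested genes fell and 3 rose against untreated cells. IGFBP4, which binds and holds back these growth factors, was at 1286, 1567 and 1016 CPM in untreated libraries, 191, 194 and 196 CPM with N-Mac and 894, 871 and 896 CPM with CKI, so that the N-Mac libraries were lowest (-2.74 against untreated, -2.20 against CKI). IGFBP7 fell (-2.47), as did the insulin receptor substrate IRS1 (-1.35). IGFBP3 was at 102, 85.8 and 125 CPM without treatment, 434, 432 and 434 CPM with N-Mac and 93.9, 93.3 and 93.7 CPM with CKI, so that N-Mac stood above both (2.06 against untreated, 2.21 against CKI).

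The regulators of cell death went both ways, 10 of 21 higher and 7 lower. BIRC3, an inhibitor of apoptosis, went from 49.6 ± 5.18 to 117 ± 6.97 CPM (SD, n = 3; 1.24) and XIAP from 91.8 ± 5.15 to 141 ± 2.85 CPM (0.61), while the survival gene BCL2L1 (-0.75) and the death-promoting BAD (-1.11) fell. BCL2A1 had 0, 1 and 0 counts in untreated, 17, 13 and 16 in N-Mac and 0, 0 and 1 in CKI libraries and was DE, with no fold given because the counts were so few. Of 6 tested metallothionein and zinc genes 2 rose and 2 fell. MT1X was at 49.7, 47.2 and 60.5 CPM in untreated and 351, 294 and 205 CPM in N-Mac libraries (2.43), whereas MT1E fell (-0.74), and these genes are near-identical copies whose reads may be split wrongly.

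Ribosomal protein genes differed between the mixtures. Against untreated cells 8 of 24 rose and 9 fell with N-Mac, with a median log2 fold change of -0.06 (5 rose without untreated replicate 1), and 22 of 24 were higher with N-Mac than with CKI, with a median difference of 0.54. RPL3 was at 1225 ± 13.5 CPM in untreated, 1018 ± 103 in N-Mac and 509 ± 13.9 in CKI cells (SD, n = 3 each). Many of these genes have processed copies in the genome. Genes of the respiratory chain showed no common direction against untreated cells, 8 of 24 higher and 9 lower, or against CKI, with 8 higher and 8 lower.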
